A study of Mus musculus with 4 samples.

Results

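Immediate early and stress response genes, 10 in number, were followed in liver RNA of mice that lack NIPP1 conditionally in that organ, a nuclear regulatory subunit of protein phosphatase 1 that is encoded by Ppp1r8. They are the AP-1 subunits Fos, Jun and Junb, the transcription factors Egr1, Atf3 and Myc, the small early-induced genes Ier2 and Ier3, the phosphatase gene Dusp1 and the antiproliferative gene Btg2. The 10 genes were found by name in the array design, from a list drawn up with earlier results of these data known, and all 10 were among the 16249 genes tested. Each was measured by 1 probe, spotted once per array except for Fos, which had 10 spots. No gene of the 10 passed the test of knockout against control livers. The spread between arrays, with dye orientation included, was above that of the median gene for all 10. The levels of Fos correlated with those of Egr1 and of Junb over the mice by Pearson's r, but not past the threshold by rank. The permutation tests of these correlations did not allow for the dyes, so their p-values can be too small.

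The knockout group held 4 mice and the control group 4 mice. All 8 were male, untreated, 2 months old and of a mixed strain, and the RNA was total liver RNA of 1 mouse each. The Cre line, its promoter, the deleted exons and the alleles of the control mice are not stated in the labels. Each of 4 two-colour arrays, all on 1 slide, carried 1 knockout and 1 control mouse. Knockout RNA was in Cy3 on arrays 1 and 2 and in Cy5 on arrays 3 and 4, so each dye held 2 mice of each genotype. Mice are numbered here by their array. In a liver extract, fewer cells of a type and less RNA per cell cannot be told apart.

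Immediate early genes are transcribed within minutes of a growth, hormone or stress signal, from transcription factors that are already present and are switched on by phosphorylation. Mitogen-activated protein kinases, serum response factor with its ETS partners and the factor CREB are their best known inputs. Their transcripts and proteins are short-lived, so the level at the time of dissection reports on the preceding hour or so. In liver they are known for the priming of hepatocytes after partial hepatectomy, and they also respond to fasting hormones and to tissue handling.

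The knockout label was checked on Ppp1r8 itself. Its brighter probe had log2 ratios of knockout over control of -0.60, -0.74, -0.74 and -0.63 on arrays 1 to 4, and the other probe averaged -0.65 ± 0.08 (SD, n = 4). With the scanner software's processed signals the means of these probes were -1.33 and -1.22. For the brighter probe limma gave an adjusted p of 0.0586 (SE 0.05), above the threshold of 0.05. Whether either probe lies in the deleted part is not given. The share of spots well above background was 52.7% to 56.3%, by array and dye, and no spot was saturated. All 8 hepatocyte markers listed, albumin and apolipoproteins among them, were well above background in all 8 mice. Pancreatic acinar markers differed widely between mice: the mean log2 level of 13 tested markers was 11.64 in knockout mouse 1 and 7.004 to 7.39 in the other 3 knockout mice, against 7.18 to 9.61 in control mice. Of these 13 markers, 5 were well above background in all 8 mice.

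The genes are introduced with part of their regulatory sequence, since most of what is known of their common control concerns the promoter. The 250 bases before the RefSeq start (GRCm38.p6, written 5′ to 3′ on the strand of the gene) are shown for Fos, the member with the most spots and the one to which other genes are compared below, and for Dusp1 and Btg2, the members that hold the full cAMP response element. Capitals mark TGACG, the short core of that element, and its full palindrome TGACGTCA, which contains it on both strands. The positions are chr12:85473640-85473889 on the plus strand for Fos, chr17:26508473-26508722 on the minus strand for Dusp1 and chr1:134079156-134079405 on the minus strand for Btg2.
Fos: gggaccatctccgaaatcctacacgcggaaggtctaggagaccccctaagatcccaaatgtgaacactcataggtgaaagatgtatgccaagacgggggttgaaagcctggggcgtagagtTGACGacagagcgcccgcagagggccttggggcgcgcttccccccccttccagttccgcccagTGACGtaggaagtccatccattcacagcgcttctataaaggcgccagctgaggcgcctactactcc
Dusp1: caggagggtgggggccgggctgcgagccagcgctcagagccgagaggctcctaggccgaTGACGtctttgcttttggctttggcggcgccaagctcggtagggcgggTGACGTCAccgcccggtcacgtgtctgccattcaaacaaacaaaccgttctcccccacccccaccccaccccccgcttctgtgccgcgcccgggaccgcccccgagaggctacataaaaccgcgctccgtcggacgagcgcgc
Btg2: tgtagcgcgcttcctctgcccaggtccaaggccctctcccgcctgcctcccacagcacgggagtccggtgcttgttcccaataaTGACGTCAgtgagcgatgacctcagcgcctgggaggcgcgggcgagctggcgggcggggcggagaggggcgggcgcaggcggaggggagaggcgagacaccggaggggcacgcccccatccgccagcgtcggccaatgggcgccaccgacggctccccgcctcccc

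Both strands were searched in the 7 members with a RefSeq promoter entry, which are Fos, Jun, Junb, Atf3, Ier3, Dusp1 and Btg2. TGACGTCA was found in 2 of them, starting 143 bases before the start in Dusp1 and 166 bases before it in Btg2, and in 1.55% of all 32851 promoter windows. TGACG was found in 5 of the 7, with the Fos matches beginning 129 and 66 bases before the start, and in 17.8% of all windows. The AP-1 site TGANTCA and the CArG box bound by serum response factor had no match in these 7 windows, against 6.75% and 1.47% of all windows. The E-box CACGTG was present in Dusp1 and in 6.02% of all windows. Such matches describe the letters of the windows and are not measured binding. Only these exact forms were searched, so a variant of a site with another base was not counted. Bases farther upstream were not searched, nor were Egr1, Ier2 and Myc, so a missing match does not show that a gene lacks the site.

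All values that follow are log2 ratios of knockout over control on 1 array, or log2 levels of 1 mouse after normalization. A mean ratio is that of 4 arrays with its SD, and its 95% confidence interval and p are from limma with a dye term, whose error leaves out any difference between the dye orientations. A level of a probe is compared between mice and never with another probe. Levels of 1 mouse can also carry a dye difference of the probe, which with 2 mice per dye and genotype cannot be told apart from the mice.

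**Figure D1:**
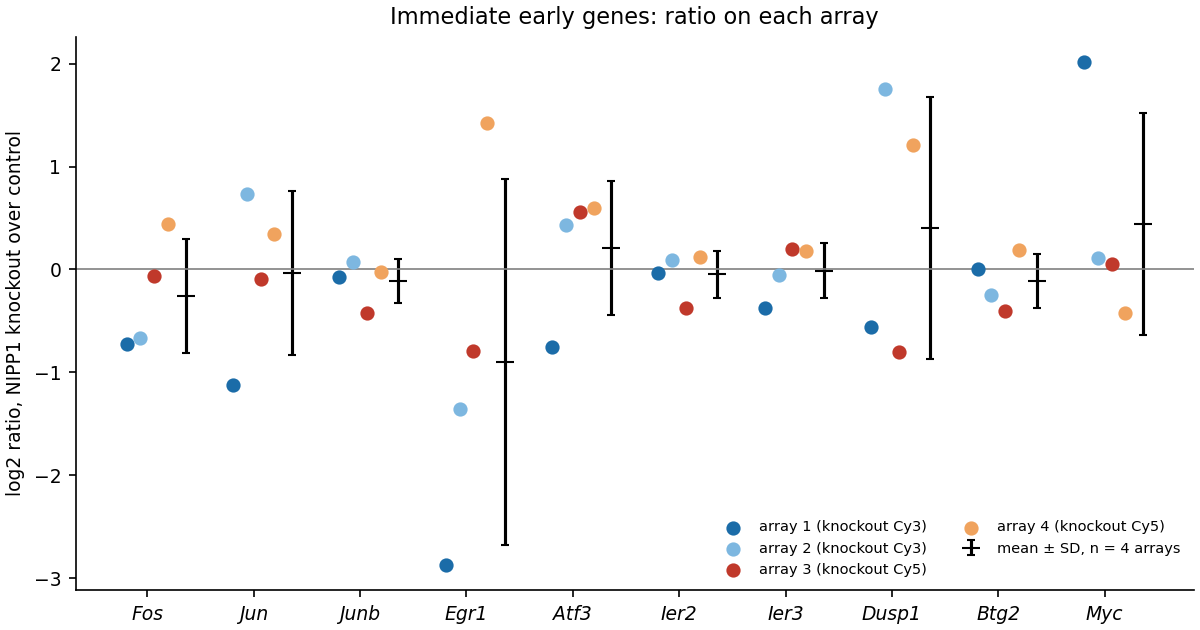
Log2 ratio of knockout over control (vertical axis) of the 10 genes on each of 4 arrays (coloured points), with the mean and SD at the right of each gene. No gene lies wholly above or below 0, and Egr1 runs from -2.87 on array 1 to 1.43 on array 4.

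Of the AP-1 subunits, Fos, the partner that binds DNA only as a dimer with a JUN protein, is measured at chromosome 12, 86817900 to 86817959 of mm9. Its log2 levels were 6.40, 6.57, 6.62 and 6.86 in knockout mice 1 to 4, against 7.12, 7.24, 6.68 and 6.42 in control mice 1 to 4. The genotypes overlapped: control mice 1 and 2, in Cy5, were the highest, and knockout mouse 1 and control mouse 4, in Cy3, the lowest. With the mean of its dye taken out of each level, control mouse 2 was the highest at 0.28 and knockout mouse 3 the lowest at -0.34. The ratios were -0.73, -0.67, -0.06 and 0.44, with a mean of -0.25 ± 0.55 (SD, n = 4), a confidence interval of -0.52 to 0.01 and an adjusted p of 0.237 in limma. The SD over the 10 spots of Fos within an array, a technical error only, was 0.09, 0.07, 0.06 and 0.10 on arrays 1 to 4, where array 3 kept 8 spots. Fos was dim, and well above background in at least 50% of its spots in 2 knockout and 3 control mice. It was so on 0, 3, 10 and 10 spots in knockout mice 1 to 4, against 10, 10, 10 and 0 spots in control mice 1 to 4. The mice below the limit, knockout mice 1 and 2 and control mouse 4, were all in Cy3, and every mouse in Cy5 had 10 spots. The count of mice by genotype therefore cannot be told apart from the dye. Fos therefore entered the test through the control mice alone, where its mean level was higher, and its ratios on arrays 1, 2 and 4 each rest on 1 mouse that was not well above background.

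Jun, the AP-1 subunit that can also pair with itself, is measured at chromosome 4, 94716928 to 94716987. Its log2 levels were 10.98, 12.21, 11.25 and 12.01 in knockout mice, against 12.10, 11.48, 11.34 and 11.66 in control mice. Knockout mice 2 and 4 and control mouse 1 were high, and the other 5 mice were lower. The ratios were -1.12, 0.74, -0.09 and 0.35, the mean -0.03 ± 0.80 (SD, n = 4) and the confidence interval -0.93 to 0.86 (limma adjusted p 0.964). Without array 1 the mean was 0.43.

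Junb, a weaker activator of the same family that can oppose Jun, is measured at chromosome 8, 87501881 to 87501940. Its levels were 6.56, 6.78, 6.42 and 6.56 in knockout mice, against 6.64, 6.71, 6.85 and 6.58 in control mice. Ratios of -0.08, 0.07, -0.42 and -0.03 gave a mean of -0.11 ± 0.22 (SD, n = 4), with an interval of -0.34 to 0.12 and an adjusted p of 0.487 in limma.

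Egr1, a zinc finger factor induced through serum response factor, had the largest spread of the 10. It is measured at chromosome 18, 35024395 to 35024454. Its log2 levels were 8.63, 9.51, 8.55 and 9.90 in knockout mice, against 11.51, 10.86, 9.34 and 8.48 in control mice. Control mice 1 and 2 stood above all 4 knockout mice, while control mouse 4 stood below them. Within a genotype, without allowance for the dye, the highest mouse exceeded the lowest 2.56-fold in knockouts and 8.16-fold in controls. With the mean of its dye taken out of each level, knockouts ran from -1.66 in mouse 3 to 0.52 in mouse 2. Controls then ran from -0.51 in mouse 4 to 1.30 in mouse 1. Control mouse 4 was thus no longer the lowest, and the range was no longer wider in controls. The ratios were -2.87, -1.36, -0.80 and 1.43, with a mean of -0.90 ± 1.78 (SD, n = 4), an interval of -2.16 to 0.36 and an adjusted p of 0.33 in limma. Control mice 1 and 2 were in Cy5 and control mice 3 and 4 in Cy3, and Cy5 exceeded Cy3 by a mean of 1.21 for Egr1 over the 4 arrays and by 0.44 for Fos. Without array 4 the mean ratio of Egr1 was -1.45, and without array 1 it was -0.52.

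Atf3, a stress-induced factor that often represses its targets, is measured at chromosome 1, 192994547 to 192994606. Its levels were 6.93, 7.25, 7.34 and 7.28 in knockout mice, against 7.69, 6.82, 6.77 and 6.68 in control mice. On arrays 2 to 4 the knockout mouse was above its control mouse, and on array 1 the control mouse was the highest of the 8. The ratios were -0.76, 0.43, 0.56 and 0.60, with a mean of 0.21 ± 0.65 (SD, n = 4), an interval of -0.36 to 0.78 and an adjusted p of 0.599 in limma. Without array 1 the mean was 0.51 and the limma adjusted p 0.128, and without array 2 the mean was -0.09.

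Myc, the growth factor-responsive activator of ribosome and metabolism genes, was set by 1 mouse. It was read by the probe at chr15:61821417-61821476 of mm9, whose sequence follows because this single probe carries the difference of that mouse.
Myc probe: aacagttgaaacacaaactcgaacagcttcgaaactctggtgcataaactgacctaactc

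The log2 levels of Myc were 9.14, 7.72, 7.29 and 7.42 in knockout mice, against 7.12, 7.61, 7.24 and 7.85 in control mice. Knockout mouse 1 stood above the other 7, which lay within 7.12 to 7.85. The ratios were 2.02, 0.11, 0.05 and -0.43, with a mean of 0.44 ± 1.08 (SD, n = 4), an interval of -0.48 to 1.36 and an adjusted p of 0.497 in limma. Without array 1 the mean was -0.04. Knockout mouse 1 is also the mouse in which pancreatic acinar markers were highest: the median ratio of those 13 genes was 4.12, -2.61, -0.16 and -1.02 on arrays 1 to 4. Among control mice, mouse 2 had the highest mean level of these markers, at 9.61, and a Myc level of 7.61. The part of these markers in the Myc value, or in other values of array 1, was not tested.

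**Figure D2:**
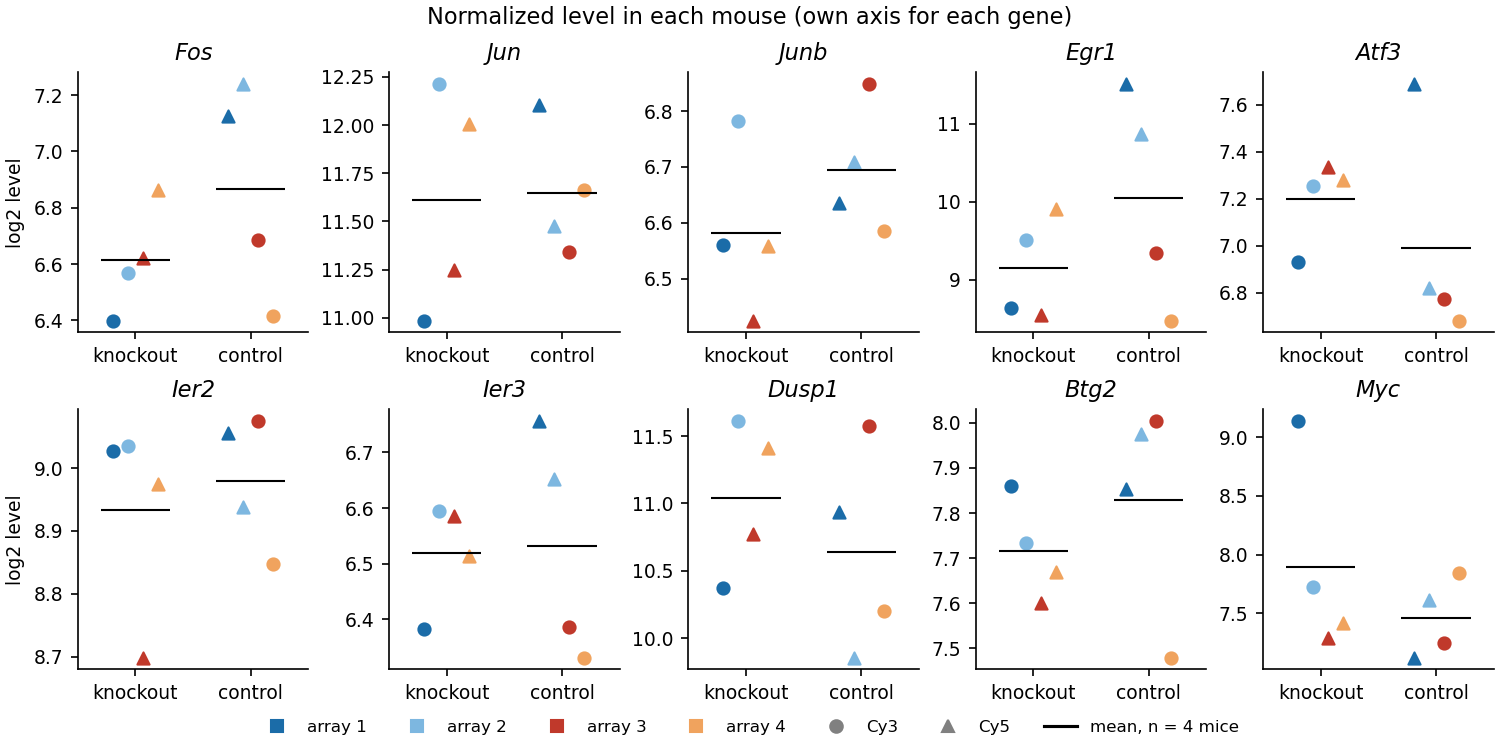
Normalized log2 level (vertical axis, own scale for each gene) of the 10 genes in each of 4 knockout and 4 control mice; colour gives the array, circles Cy3 and triangles Cy5, and the line the mean. The genotypes overlap in every panel, and knockout mouse 1 stands apart for Myc at 9.14.

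Dusp1, which encodes a nuclear phosphatase that switches off MAP kinases and so limits the same response, is listed at chromosome 17, 26642526 to 26642536. Its log2 levels were 10.37, 11.61, 10.77 and 11.41 in knockout mice, against 10.93, 9.86, 11.58 and 10.20 in control mice. Each genotype thus held both high and low mice. The ratios were -0.56, 1.76, -0.80 and 1.21, which is 3.38-fold higher in the knockout mouse on array 2 and 0.57-fold on array 3. The mean was 0.40 ± 1.27 (SD, n = 4), with an interval of -1.03 to 1.83 and an adjusted p of 0.692 in limma. Without array 2 the mean was -0.18, and without array 4 it was -0.10.

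Ier2, Ier3 and Btg2 had ratios within -0.40 and 0.20 on every array. Ier2, which encodes a small nuclear protein (chromosome 8, 87186214 to 87186273), had ratios of -0.03, 0.10, -0.38 and 0.13 and a mean of -0.05 ± 0.23 (SD, n = 4; interval -0.32 to 0.22, limma adjusted p 0.814). Ier3, whose product affects survival under stress (chromosome 17, 35959528 to 35959587), had -0.37, -0.06, 0.20 and 0.18 and a mean of -0.01 ± 0.27 (SD, n = 4; interval -0.20 to 0.18, limma adjusted p 0.933). Ier3 was well above background in 4 knockout and 2 control mice and so entered the test through the knockout mice alone. Its processed-signal ratios were wider, at -1.02, 0.09, 0.32 and 0.91. Btg2, an antiproliferative gene that is also a target of p53 (chromosome 1, 135972094 to 135972153), had 0.01, -0.24, -0.40 and 0.19 and a mean of -0.11 ± 0.26 (SD, n = 4; interval -0.44 to 0.21, limma adjusted p 0.62). The levels of these genes also overlapped between the genotypes, with Ier2 at 8.70 to 9.03 in knockout mice and 8.85 to 9.08 in control mice.

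Over the 10 genes, 0 passed an adjusted p of 0.05 in limma, beside 0% of the 16249 tested genes. At an unadjusted p under 0.05 there were again 0 of 10, beside 22.7% of tested genes. The separate-channel limma fit also had 0 of 10, and its share of tested genes is not given here. At an adjusted p under 0.1 there were 0 of 10, beside 5.59% of tested genes, of which 3.53% were higher and 2.07% lower in knockouts as shares of all tested genes. The same sign on all 4 arrays was seen in 0 of 10, beside 24.1% of tested genes, and levels that did not overlap between genotypes in 0 of 10, beside 12.1%. The mean ratio was below 0 in 7 genes and above 0 in 3, and its median over the 10 was -0.04, beside 0.00 over all tested genes.

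The intervals limit what these 4 arrays can show. For Junb, Ier2, Ier3 and Btg2 they lay within -0.44 to 0.22, for Fos within -0.52 to 0.01 and for Atf3 within -0.36 to 0.78. For Jun, Egr1, Dusp1 and Myc they ran from as low as -2.16 to as high as 1.83, the low end being that of Egr1 and the high end that of Dusp1. A ratio of a dim probe is also drawn towards 0 by the background offset used here. In the scanner software's processed signals Fos had ratios of -2.35, -1.75, -0.19 and 1.87, and its range over the arrays was 3.61 times as wide. Its mean ratio was then -0.60, below the interval given above, and that of Junb was -0.31, so these intervals hold only for the processing used here. The range was also over 1.5 times as wide for Junb (3.09 times), Ier3 (3.37 times) and Atf3 (1.90 times), and under 1.5 times as wide for the other 6. No direction on an array changed for Fos, Junb or Atf3, and no gene of the 10 passed 0.05 with those signals, with a smallest adjusted p of 0.366 in limma.

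The spread between arrays was large. The SD of the ratio over 4 arrays was above the median of all tested genes, 0.17, for 10 of the 10 genes. This SD keeps any difference between the dye orientations, which the limma error leaves out, so it is not variation between mice alone. The mean log2 ratio of Cy5 over Cy3 was 1.21 for Egr1, -0.20 for Dusp1, -0.63 for Myc, 0.16 for Jun, 0.37 for Atf3 and 0.44 for Fos. Egr1 had an SD of 1.78, the 52nd largest of 16249, Dusp1 1.27 (the 127th) and Myc 1.08 (the 199th). Jun had 0.80, Atf3 0.65 and Fos 0.55, at percentiles 97.6, 96.0 and 94.1 of all tested genes. Ier3, Btg2, Ier2 and Junb lay at percentiles 73.5, 72.7, 66.1 and 62.8. Egr1, Dusp1 and Myc had a range of at least 2 log2 units over the arrays, as had 1.80% of tested genes. With the processed signals the SD of Fos lay at percentile 99.2 and that of Ier3 at 94.5 and that of Junb at 92.0.

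**Figure D3:**
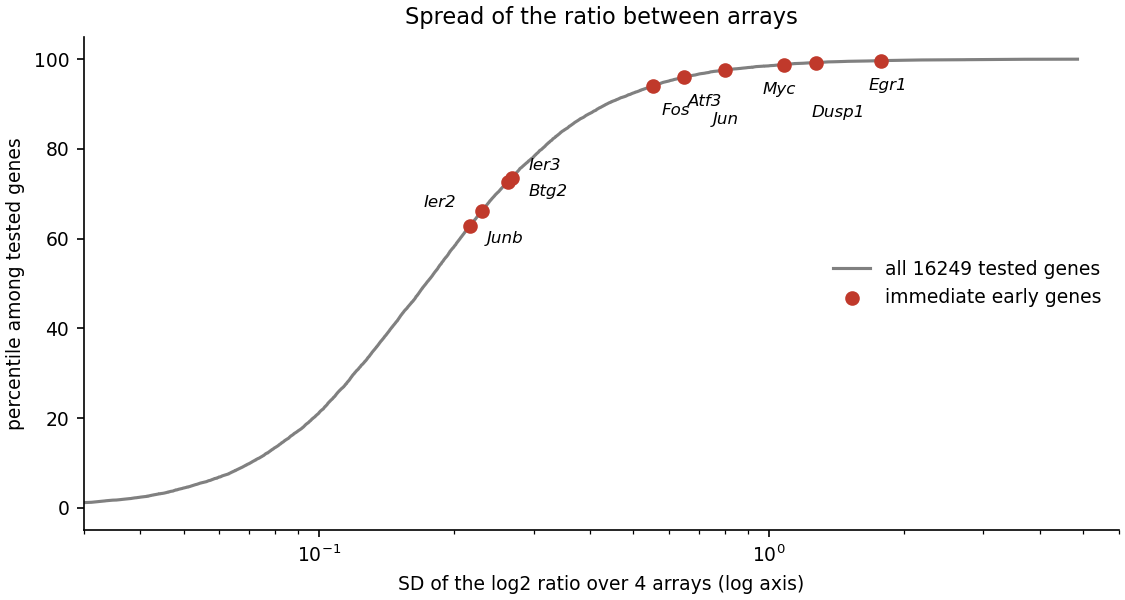
Cumulative curve of the SD of the log2 ratio over 4 arrays (horizontal log axis) for 16249 tested genes, as a percentile (vertical axis), with the 10 immediate early genes as points. All 10 lie above the middle of the curve, and Egr1, Dusp1 and Myc above percentile 98. The SD includes any difference between the dye orientations.

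The 10 genes did not move as 1 block. Their median ratio was -0.47, 0.08, -0.24 and 0.27 on arrays 1 to 4, where the median of all tested genes was between -0.01 and 0.02. On array 1, 8 of the 10 were lower in the knockout mouse, the other 2 being Myc and Btg2. On array 4, 8 of the 10 were higher in the knockout mouse. Arrays 2 and 3 were mixed, with 6 and 3 higher.

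The likeness of 2 genes was measured as the correlation of their levels over the 8 mice, each level taken minus the mean of its dye. All 45 pairs were computed, a choice made after the data were seen, with exact two-sided permutation tests adjusted over the 45. The permutations ran over all 8 mice and not within each dye. They do not allow for the dye means taken out, so the p-values of the pairs can be too small. The 2 mice of an array share its spots, so the 8 points are not fully independent. Fos was not well above background in knockout mice 1 and 2 and control mouse 4, so its level in these 3 mice is uncertain in every correlation with it. Fos and Junb had a Pearson r of 0.91 (exact p 0.00246, adjusted 0.0446) and a Spearman rho of 0.95 (exact p 0.00114, adjusted 0.0513), with r = 0.89 without the 2 mice farthest from the median of Fos. Fos and Egr1 had r = 0.91 (exact p 0.0026, adjusted 0.0446) and rho = 0.86 (exact p 0.0107, adjusted 0.241), with r = 0.88 without 2 mice. Egr1 and Ier2 had r = 0.86 (exact p 0.00298, adjusted 0.0446) and rho = 0.69 (exact p 0.0694, adjusted 0.425), and this relation rested on 2 mice, since r without them was 0.51. These were the 3 pairs with an adjusted p under 0.05 by Pearson's r, and no pair had one by rho. Of the 45 coefficients 32 were positive.

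The Pearson r of Jun, Dusp1, Atf3 and Myc with Fos was 0.30, -0.01, -0.16 and -0.27. Myc with Dusp1 had the lowest Pearson coefficient of the 45, r = -0.57 (exact p 0.131, adjusted 0.42) and rho = -0.57 (exact p 0.151, adjusted 0.425), with r = -0.82 without 2 mice. By rank Jun with Myc was lower, at rho = -0.62 (exact p 0.115, adjusted 0.425).

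**Figure D4:**
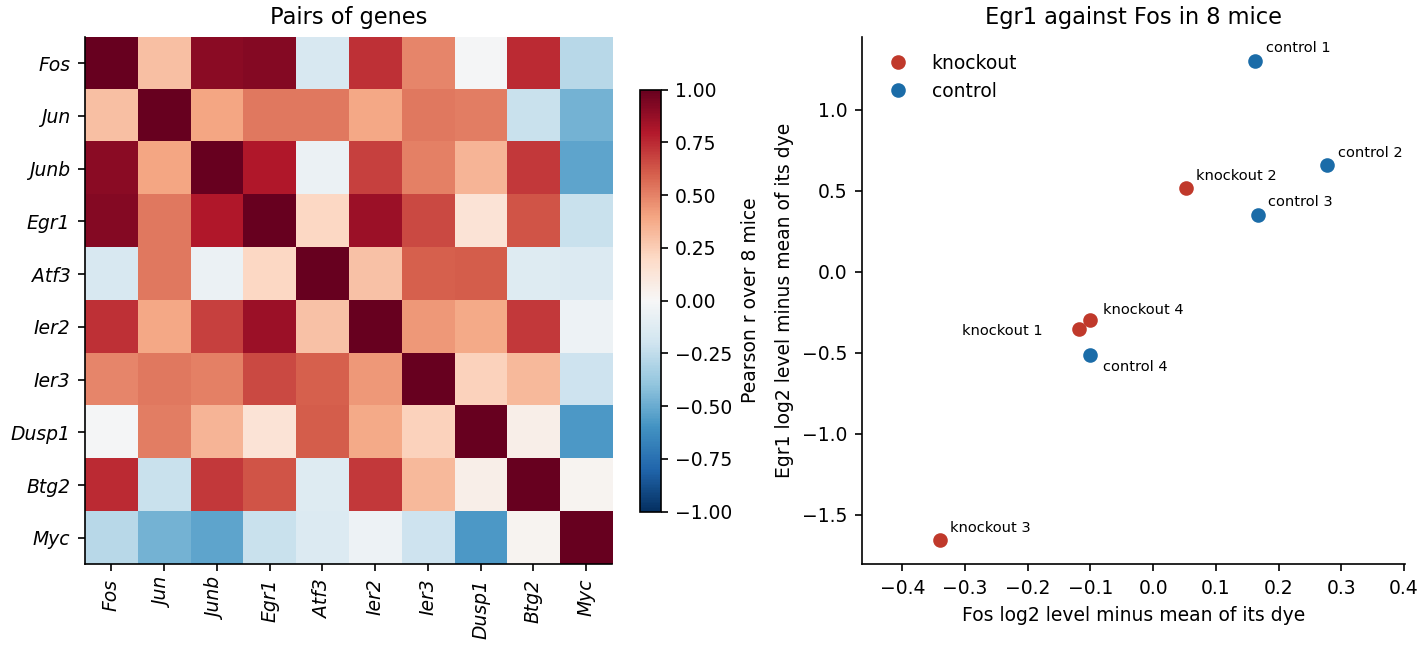
Left, Pearson r over 8 mice for each pair of the 10 genes; right, Egr1 (vertical) against Fos (horizontal), each as log2 level minus the mean of its dye, with every mouse labelled. Control mice 1, 2 and 3 and knockout mouse 2 are high for both genes, and knockout mouse 3 is lowest for both.

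Among 16228 other genes, those most like Fos by r over the 8 mice were a probe with no gene name here (A_55_P2124085, r = 0.99), Xrn1 (0.98), which encodes the cytoplasmic exoribonuclease that degrades decapped mRNA, Tshz3 (0.98), Mtus1 (0.98) and Dcaf8 (0.98). Egr1 ranked 95th and Junb 129th. The ratios of Xrn1 were -0.26, -0.24, -0.16 and 0.13 on arrays 1 to 4, against -0.73, -0.67, -0.06 and 0.44 for Fos. With 8 mice and this many genes, coefficients of such size are a description of likeness in these mice.

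Other genes of the response were taken as 9 lists, with 141 tested genes in all. None of the 141 passed an adjusted p of 0.05 in limma in either direction. At an adjusted p under 0.1, 3 were higher and 2 lower, beside 3.53% and 2.07% of all tested genes, and at an unadjusted p under 0.05, 15 were higher and 12 lower, beside 12.6% and 10.1% of all tested genes. The median SD over arrays was 0.14 for 28 tested MAP kinase, SRF and CREB genes, and the median of their ratios -0.03, with 1 higher and 0 lower at an adjusted p under 0.1. Rps6ka1, a ribosomal S6 kinase downstream of ERK, had 0.33 ± 0.06 (SE, limma adjusted p 0.0976) and Hras 0.26 ± 0.07 (SE, limma adjusted p 0.138).

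Other immediate early transcription factors (19 of 23 tested) had a median ratio of 0.05 and 2 higher and 2 lower at an unadjusted p under 0.05. Their array medians, -0.29, 0.11, -0.14 and 0.20, had the signs of those of the 10 genes. So had those of the secreted, signalling and RNA-decay genes below, at -0.16, 0.15, -0.24 and 0.06. Of those with the same sign on all 4 arrays, Klf2, a Krüppel-like factor, had the largest mean at -0.35 ± 0.15 (SE, limma adjusted p 0.266), followed by Id3, an inhibitor of helix-loop-helix factors, at 0.22 ± 0.06 (SE, limma adjusted p 0.158). Nr4a1, an orphan nuclear receptor induced with Egr1 and named after its values were seen, had ratios of -2.66, -0.95, -1.12 and 1.52, against -2.87, -1.36, -0.80 and 1.43 for Egr1. Klf10, also named after its values were seen, had -1.14, 1.65, -0.55 and 0.48, against -0.56, 1.76, -0.80 and 1.21 for Dusp1.

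Other AP-1 genes and dimer partners (16 of 17 tested) had a median ratio of -0.05. Nfe2l2, which encodes NRF2, had 0.26, 0.61, 1.002 and 1.09 on arrays 1 to 4 and a mean of 0.74 ± 0.08 (SE, limma adjusted p 0.0586), the one member of the list at an adjusted p under 0.1. Mafk, a small MAF partner of NRF2, had 0.16 ± 0.05 (SE, limma adjusted p 0.165). Secreted, signalling and RNA-decay genes (24 of 28 tested) had a median of -0.02, with 0 higher and 3 lower at an unadjusted p under 0.05 and 1 lower at an adjusted p under 0.1. That 1 was Plk3, a polo-like kinase named after its values were seen, with 0.41, 0.58, -1.58 and -2.30 on arrays 1 to 4 (mean -0.72 ± 0.13, SE, limma adjusted p 0.0948) and thus opposite signs in the dye orientations. Ppp1r15a, which recruits protein phosphatase 1 to the initiation factor eIF2, had -0.36 ± 0.17 (SE, limma adjusted p 0.3) and Gem, a small GTPase, -0.26 ± 0.08 (SE, limma adjusted p 0.181). Phlda1, named after its values were seen, had 2.60, 1.15, -0.80 and -0.94, with opposite signs in the dye orientations.

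The relatives of Btg2 and the GADD45 stress genes (7 of 7 tested) had a median ratio of -0.01 and a median SD of 0.56. Gadd45b had -2.25, -0.01, -0.73 and -0.07 (mean -0.77 ± 0.40, SE, limma adjusted p 0.337) and Btg3 had -0.61 ± 0.20 (SE, limma adjusted p 0.183). Gadd45g, named after its values were seen, ran from 2.43 on array 1 to -2.31 on array 3. Of the other phosphatases of the Dusp1 family 7 of 10 were tested, with a median of 0.07 and a median SD of 0.14. Dusp14, the one with the same sign on all 4 arrays, had 0.25 ± 0.06 (SE, limma adjusted p 0.116).

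Dimer partners in the MYC network (10 of 12 tested) had a median of -0.04. Mxd1, which competes with MYC for MAX, had -0.38 ± 0.07 (SE, limma adjusted p 0.0875), and Mlxipl, the carbohydrate response factor ChREBP, had 0.32 ± 0.06 (SE, limma adjusted p 0.0945) with 0.00 and 0.02 on arrays 1 and 2 and 0.51 and 0.73 on arrays 3 and 4. MYC target genes (20 of 20 tested) had a median of -0.01 and array medians of 0.17, -0.01, -0.14 and -0.23. Odc1, ornithine decarboxylase, had 0.41 ± 0.10 (SE, limma adjusted p 0.121) and Bop1, a ribosome assembly factor, -0.21 ± 0.07 (SE, limma adjusted p 0.206). Circadian clock genes (10 of 13 tested), which follow the hour of sampling, had a median of -0.01. Dbp, a clock output factor, had 0.69 ± 0.20 (SE, limma adjusted p 0.161), and Nr1d1, which encodes REV-ERB alpha, -0.34 ± 0.15 (SE, limma adjusted p 0.261). The labels do not state the hour of sampling.

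**Figure D5:**
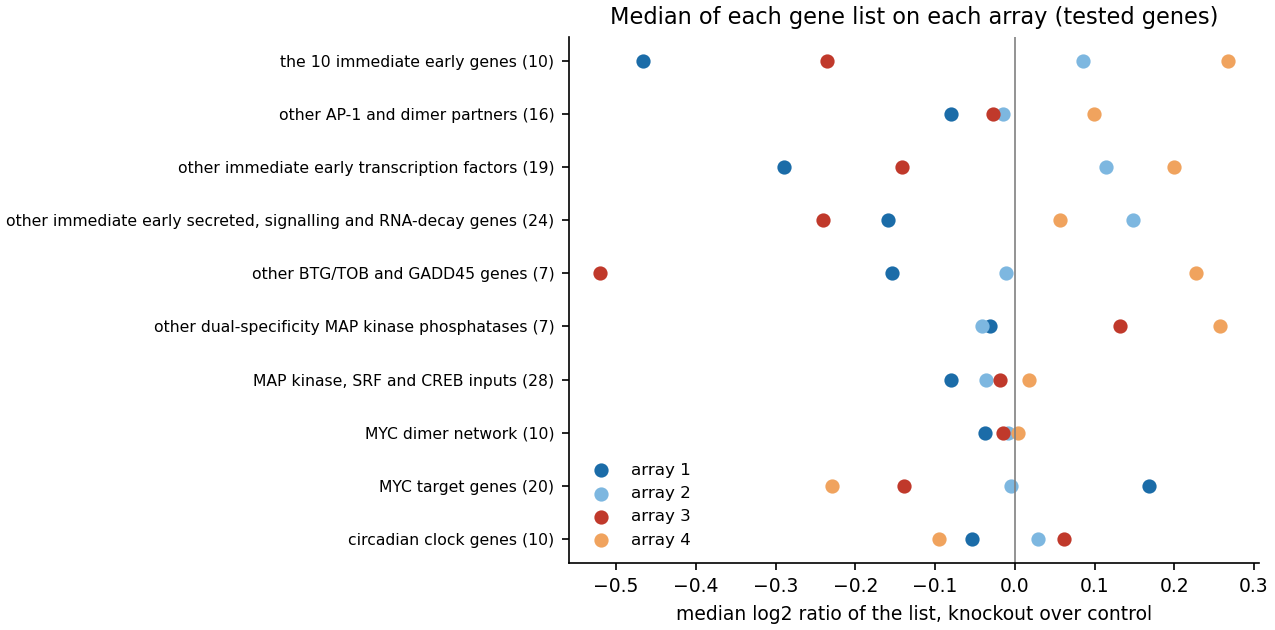
Median log2 ratio of knockout over control (horizontal axis) of the 10 genes and of the 9 other lists on each of 4 arrays (coloured points), with the number of tested genes in brackets. The 10 genes run from -0.47 on array 1 to 0.27 on array 4, while the MAP kinase, SRF and CREB inputs stay within -0.08 to 0.02.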

How the data were processed

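Total liver RNA of 8 mice was compared on 4 two-colour Agilent 4x44K arrays, 1 knockout and 1 control mouse each. Spot intensities, as deposited by the authors, came from Feature Extraction 10.7.3.1 per the file headers, with probe positions on mm9. The deposited value table holds log2 values: in row order all 43020 values of each array lay within 1e-04 of the log2 ratio of knockout over control of the processed signals.

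From the mean and background intensities, normexp (offset 50, limma 3.58.1, R 4.3.3) was fitted without non-uniform spots, since on all spots its estimated Cy3 background mean was -273 on array 1, against 4.07 without them. Loess followed, control and outlier spots were left out, and repeated spots were averaged per probe. Testing required a signal well above background in 3 or more mice of either genotype, and the brightest tested probe stood for a gene. Levels of single mice were taken after Aquantile scaling between arrays. limma fitted the knockout effect with a dye term on 4 arrays, with Benjamini-Hochberg adjustment over 16249 genes and a threshold of 0.05. The fit was tested on simulated data with normal noise, its spread taken within dye orientations and drawn towards that of the median gene. Genes with a spread as large as that of Egr1 were thus not fully represented. No list gene passed 0.05, so up to 2 genes of each list were named, those with the largest mean ratio among genes of the same sign on all 4 arrays. Others are marked in the text as named after their values were seen. The 5 genes most correlated with Fos over the mice were also named. The 10 genes and the lists were chosen with earlier results of these data known. Exon or UTR positions of the probes are not given here, since no mm9 annotation was used.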

Additional observations from a re-analysis of the deposited data

Results flagged for a closer look

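Among 30 groups of 4 values examined for 1 value far from the others, 2 stood out, both for Atf3 and both from array 1. The Atf3 log2 ratio of knockout over control was -0.76 on array 1 and 0.43 to 0.60 on the other 3 arrays. The Atf3 log2 level was 7.69 in control mouse 1 and 6.68 to 6.82 in the other 3 control mice. Chance alone would mark about 1 in 20 such groups, and the 2 values share 1 spot.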

How the results depend on the processing

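Of 148 results for single genes under 15 alternatives, 136 kept their direction and their side of the threshold, 12 changed direction and 0 passed an adjusted p of 0.05 in limma, the lowest being 0.128 for Atf3 without replicate 1. The log2 ratio of Ier3 turned to 0.063 when normexp used all spots and to 0.074 on processed signals, and that of Jun to 0.023 under median centring. The other changes came from leaving out 1 array. Jun then ran from -0.50 to 0.43 (0.43 and 0.08 without replicates 1 and 3), Ier3 from -0.091 to 0.066 (highest without replicate 1) and Myc from -0.038 to 0.91 (lowest without replicate 1). Atf3 ran from -0.088 to 0.51 (lowest without replicate 2), Dusp1 from -0.18 to 0.98 (-0.18 and -0.10 without replicates 2 and 4), Ier2 from -0.17 to 0.080 and Btg2 from -0.26 to 0.035 (both highest without replicate 3). The cause was not tested.

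Over all genes, the count at an adjusted p under 0.05 was 0, and became 8 with processed signals, 29 with no background correction, 207 with median centring, 10 with no dye term, 323 with a separate-channel fit, 27 with trend and robust settings and 266 with no filter. The count under 0.1 was 909, and became 442 with normexp on all spots, 1368 with median centring and 230 with no dye term, with 0 to 60 when 1 replicate was left out (60 without replicate 1). Of the 10 genes, 1 had an unadjusted p under 0.05 with normexp on all spots, with median centring, with trend and robust settings and with no filter. When 1 replicate was left out, 0 to 2 had one. The share of all tested genes at these settings is not given here, so these counts cannot be read as a gain. In the main limma fit that share was 22.7%. The count with the same sign on every array, added after seeing the data, was 0 to 3 when 1 replicate was left out. Fewer arrays then had to agree, so the share of 24.1% of tested genes on all 4 arrays does not apply to it. The share with 1 replicate left out is not given here. The median ratio of the 10 genes ran from -0.16 to 0.06 when 1 replicate was left out. With probes well above background in all 8 mice, Fos and Ier3 were not tested. The slide as a block was not run because all arrays lay on 1 slide. The ratio within an array is itself the paired comparison of its knockout and control mouse. With 4 arrays the precision is limited by their number, and Fos and Ier3 were below the limit for well above background in some mice.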
